A study of Mus musculus with 10 samples.

Results

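The interferon-inducible p200 genes, also called HIN-200 or PYHIN genes, were followed in the subepithelial layer of the trachea of mice that had inhaled chlorine. The 8 genes listed were Ifi202b, Ifi203, Ifi204, Ifi205, Mnda, Mndal, Aim2 and Pyhin1, and a gene was given a value where a probe set of the array named it alone. This left 6 of the 8, among 22180 genes measured in that way. Ifi202b, Ifi204, Ifi205, Mndal and Aim2 were found by symbol, and Pyhin1 was found under its current symbol Ifi209. Mnda is an older name of Ifi211, whose probe set also names Ifi204, and the probe set of Ifi203 also names its pseudogene, so these 2 genes have no value of their own. The family was selected on the differences between exposed and unexposed mice, so those differences are given for its members as a description, without p-values.

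The exposed group was 5 males of the FVB/NJ strain, aged 9 weeks, whose whole bodies spent 1 hr in 235 ppm of chlorine and whose tracheas were taken 4 days later. The unexposed group was 5 males of that strain and age with no treatment. Subepithelial mesenchyme was cut by laser from stained frozen sections, the tissue of each animal was pooled over sections, and RNA of each mouse was hybridised to 1 Affymetrix array, so the number of arrays limits the precision. Values are log2 intensities after robust multi-array averaging (RMA), and each difference is the mean of exposed mice minus the mean of unexposed mice on that scale. In both groups markers of the labelled tissue and of others were present: the collagen gene Col3a1 averaged 11.01 ± 0.36 in exposed mice and 9.98 ± 0.22 in unexposed mice, the fibroblast receptor gene Pdgfra 8.99 ± 0.34 and 8.31 ± 0.20, and the epithelial adhesion gene Epcam 8.12 ± 0.66 and 8.40 ± 0.24 (SD, n = 5 each). In such bulk tissue, fewer cells of a type and less RNA per cell cannot be told apart. Array medians lay between 5.10 and 5.18, and no detection limit was available, so whether a gene below the median was expressed is uncertain.

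Most p200 proteins join a DNA-binding HIN domain to a pyrin domain, which binds other pyrin domains, and many of their genes are induced by interferons. AIM2 senses double-stranded DNA in the cytosol and, through the adaptor ASC, activates caspase-1, which matures interleukin-1 beta and interleukin-18 and cleaves gasdermin D. The protein of Ifi202b lacks a pyrin domain and restrains AIM2 in mouse cells, and the protein of Ifi204 is a nuclear and cytosolic DNA sensor linked to STING signalling. In the GRCm38.p6 RefSeq annotation the family forms 1 cluster of 14 genes on chromosome 1, with 0 other protein-coding genes inside it. Its order is Aim2, Ifi206, Ifi214, Ifi213, Ifi209, Ifi208, Ifi207, Ifi204, Ifi203-ps, Mndal, Ifi211, Ifi203, Ifi202b and Ifi205.

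Some genes of the cluster shared promoter sequence near their starts, and the sequences are given before the values. They are those of the reference assembly. The DNA of the FVB/NJ mice was not read here, so their promoters may differ. Promoters of 250 bases before to 50 bases after the annotated start, taken from RefSeq on GRCm38.p6, were at hand for 7 of the 8 listed genes and for 5 others of the cluster. They were searched on both strands for GAAANNGAA, a pair of half-sites bound by interferon regulatory factors, which 8.56% of all 32851 promoters held. The match lay in at least 1 promoter of 9 of the 12 genes, and in 4 of the 7 listed ones. In each of these 9 genes 1 match read in the direction of the gene, and it is given here in capitals with the bases around it, in cluster order, to let its likeness across the cluster be seen.
Ifi206, chr1:173491335-173491364, minus strand: tctgagGAAATCGAAagctatgaaccttgt
Ifi214, chr1:173536013-173536042, minus strand: tctgagGAAATCGAAagcgatgcactctgc
Ifi213, chr1:173599322-173599351, minus strand: tctgagGAAATCGAAagctatgaaccttgt
Ifi208, chr1:173673601-173673630, plus strand: tctgagGAAATCGAAagctatgaaccttgt
Ifi207, chr1:173741827-173741856, minus strand: gccaggGAAATCGAAaattaagaacaaaac
Mndal, chr1:173880200-173880229, minus strand: gctgggGAAATCGAAagctatgaacagtgc
Ifi211, chr1:173913060-173913089, minus strand: gccaggGAAATTGAAagctatgaacgaaac
Ifi203, chr1:173942504-173942533, minus strand: gctgggGAAATCGAAagctatgaacagtgc
Ifi205, chr1:174031866-174031895, minus strand: gccaggGAAATTGAAagctatgaacaaaac
The match was GAAATCGAA in 7 of the 9 and GAAATTGAA in Ifi205 and Ifi211, and the same 7 bases followed it in 5 of those 7 and in both of the others. Counted from the annotated start, it began between -79 and -35 in 8 of the genes and at -134 in Ifi205. Ifi205 held another match on the reverse strand, after its start, and Mndal had another on the reverse strand of its other annotated promoter. The searched letters were not in the promoters of Ifi202b, Ifi209 or Aim2, and no promoter of Ifi204 was at hand.

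Over the whole window, promoters fell into near-copies and unlike pairs. The promoter of Ifi209 was 95.3% identical to that of Ifi214, that of Ifi203 was 90.7% identical to that of Mndal, and that of Ifi211 was 85.9% identical to that of Ifi207. The promoters of Ifi202b, Ifi205 and Aim2 are printed whole, since these are 2 members called higher and 1 not called. Capitals mark matches to GAAANNGAA, to TTCNNNGAA (the gamma-activated site bound by STAT dimers, in 8.30% of all promoters) and to GAGGAAGT (a core bound by the myeloid factor PU.1, in 3.20%), on either strand.
Ifi202b, chr1:173982795-173983094, minus strand: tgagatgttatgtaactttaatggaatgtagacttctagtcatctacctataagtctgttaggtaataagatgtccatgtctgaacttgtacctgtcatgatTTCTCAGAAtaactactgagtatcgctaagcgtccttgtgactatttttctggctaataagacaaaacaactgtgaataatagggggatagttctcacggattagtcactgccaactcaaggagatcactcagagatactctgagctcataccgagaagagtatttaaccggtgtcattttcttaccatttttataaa
Ifi205, chr1:174031706-174032005, minus strand: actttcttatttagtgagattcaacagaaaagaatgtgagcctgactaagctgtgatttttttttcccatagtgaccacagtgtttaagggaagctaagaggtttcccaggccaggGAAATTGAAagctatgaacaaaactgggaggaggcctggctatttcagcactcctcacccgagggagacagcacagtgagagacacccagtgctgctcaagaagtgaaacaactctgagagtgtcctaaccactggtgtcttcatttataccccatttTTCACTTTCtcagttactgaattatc
Aim2, chr1:173420354-173420653, plus strand: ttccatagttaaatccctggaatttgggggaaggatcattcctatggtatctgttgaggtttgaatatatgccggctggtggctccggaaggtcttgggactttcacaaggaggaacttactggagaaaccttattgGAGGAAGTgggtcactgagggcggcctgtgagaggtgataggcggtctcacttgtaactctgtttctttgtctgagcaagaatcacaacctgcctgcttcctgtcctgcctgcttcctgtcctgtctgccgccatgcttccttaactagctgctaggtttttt
Ifi202b held 1 match to TTCNNNGAA, Ifi205 held 2 matches to GAAANNGAA, and Aim2 held 1 match to GAGGAAGT. Each of these 3 windows held matches to only 1 of the motifs, so matches of different motifs could not overlap there. A match is a run of letters and does not show that a factor binds there.

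The family divided into 3 genes that were much higher after chlorine and 3 that were not called. Ifi204, Ifi202b and Ifi205 were called higher when all genes were fitted (limma, adjusted p under 0.05), 0 were called lower, and Ifi209, Mndal and Aim2 were not called. Over all 22180 genes, 5.85% were called higher and 4.97% lower. For the same 3 members, the lowest exposed value was above the highest unexposed value, a pattern seen in 5.89% of all genes. Because these values chose the family, nothing is read from the counts. The median difference over the 6 members was 1.32, against -0.003 over all genes.

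**Figure D1:**
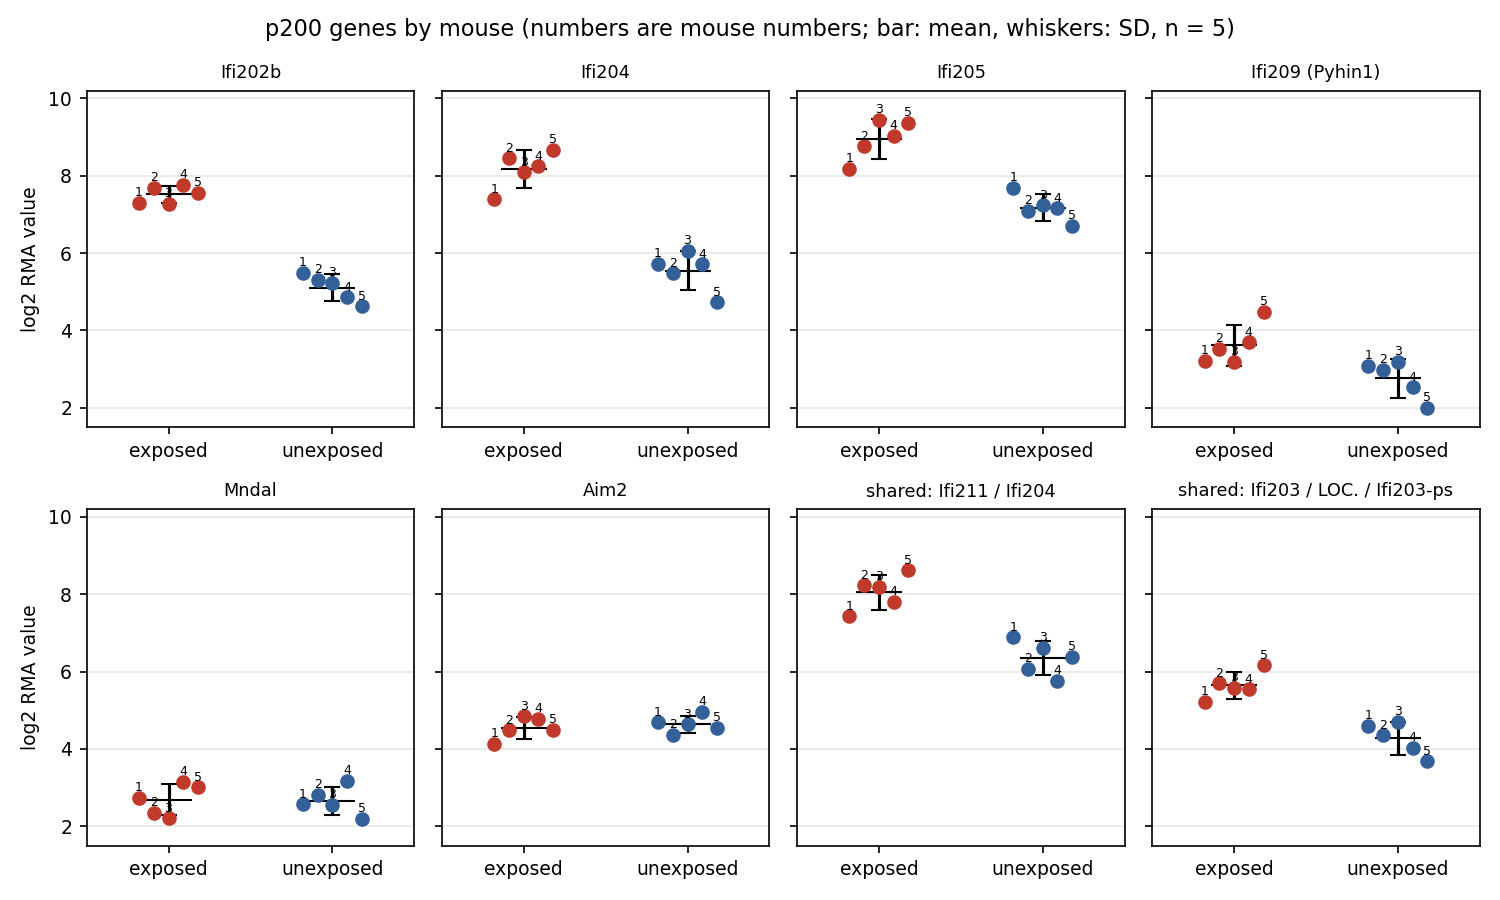
Log2 RMA value (vertical axis) of the 6 members and of the 2 probe sets that name a listed gene together with others, in exposed (red, left) and unexposed mice (blue, right). Points are mice with their numbers, horizontal bars are means and whiskers SD (n = 5); exposed and unexposed points are apart for Ifi202b, Ifi204, Ifi205 and both shared probe sets and overlap for Ifi209, Mndal and Aim2.

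Ifi204 showed the largest difference of the family. Its values were 7.39, 8.45, 8.09, 8.24 and 8.66 in exposed mice 1 to 5, against 5.72, 5.48, 6.06, 5.71 and 4.72 in unexposed mice 1 to 5. The groups lay apart, with exposed mouse 1 lowest among the exposed and unexposed mouse 5 lowest among the unexposed. The means were 8.17 ± 0.48 in exposed mice and 5.54 ± 0.50 in unexposed mice (SD, n = 5 each), a difference of 2.63 (SE 0.27) or 6.18-fold, the 31st largest rise among all genes. With any 1 mouse left out it was 2.42 to 2.82.

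Ifi202b, whose protein lacks the pyrin domain, was the steadiest of the 3 among exposed mice. It measured 7.29, 7.68, 7.27, 7.76 and 7.56 in exposed mice 1 to 5, against 5.49, 5.31, 5.23, 4.86 and 4.63 in unexposed mice 1 to 5. Its exposed values spanned 0.49, where those of Ifi204 and Ifi205 spanned 1.27 and 1.28. Exposed mice 1 and 3 were the lowest of the exposed, and the groups did not overlap. The means were 7.51 ± 0.22 in exposed mice and 5.10 ± 0.35 in unexposed mice (SD, n = 5 each), a difference of 2.41 (SE 0.17) or 5.32-fold, and 2.29 to 2.51 with any 1 mouse left out.

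Ifi205 encodes a pyrin and HIN protein studied in mouse macrophages, where it controls expression of the ASC gene. It stood at 8.17, 8.75, 9.45, 9.04 and 9.37 in exposed mice 1 to 5, against 7.69, 7.09, 7.23, 7.15 and 6.71 in unexposed mice 1 to 5. The groups lay apart, with exposed mouse 1 lowest among the exposed and unexposed mouse 1 highest among the unexposed. The means were 8.95 ± 0.52 in exposed mice and 7.17 ± 0.35 in unexposed mice (SD, n = 5 each), a difference of 1.78 (SE 0.24) or 3.44-fold, and 1.66 to 1.98 with any 1 mouse left out.

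Ifi209, for which RefSeq lists Pyhin1 as an older name, was between the 2 kinds of member. It had 3.21, 3.53, 3.18, 3.69 and 4.47 in exposed mice 1 to 5, against 3.09, 2.98, 3.19, 2.53 and 2.00 in unexposed mice 1 to 5. Exposed mouse 3 lay just under unexposed mouse 3, so the groups overlapped by this 1 pair of mice. The means were 3.62 ± 0.52 in exposed mice and 2.76 ± 0.49 in unexposed mice (SD, n = 5 each), and the difference was 0.86 (SE 0.28), with a 95% interval, not adjusted for the number of genes, of 0.25 to 1.47. It was not called, and all 10 values lay below their array's median.

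Aim2, the DNA sensor of the inflammasome, was not called. It measured 4.13, 4.48, 4.84, 4.78 and 4.49 in exposed mice 1 to 5, against 4.69, 4.37, 4.64, 4.96 and 4.54 in unexposed mice 1 to 5. The values of the groups were mixed, and exposed mouse 1 held the lowest. The means were 4.55 ± 0.28 in exposed mice and 4.64 ± 0.22 in unexposed mice (SD, n = 5 each), a difference of -0.09 (SE 0.15) with a 95% interval of -0.42 to 0.24; with 1 mouse left out it ran from -0.17 to 0.01, the value above 0 being that without exposed mouse 1. All 10 values were below the array medians, so the interval does not bound a change that the probe set could not register.

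Mndal, a p200 gene named for its likeness to Mnda, was below the array median in all 10 mice and was not called. Its values were 2.74, 2.34, 2.21, 3.15 and 3.01 in exposed mice 1 to 5, against 2.57, 2.82, 2.56, 3.18 and 2.19 in unexposed mice 1 to 5. Highs and lows occurred in both groups. The means were 2.69 ± 0.41 in exposed mice and 2.66 ± 0.36 in unexposed mice (SD, n = 5 each), a difference of 0.03 (SE 0.22, 95% interval -0.45 to 0.50) that ran from -0.09 to 0.16 with 1 mouse left out.

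The genes without a probe set of their own were represented by shared ones. The probe set that names Ifi211 and Ifi204 held 7.43, 8.23, 8.20, 7.80 and 8.61 in exposed mice 1 to 5, against 6.88, 6.07, 6.61, 5.76 and 6.38 in unexposed mice 1 to 5. Its groups did not overlap, and the difference was 1.71 (SE 0.26). Since Ifi204 had a difference of 2.63 by its own probe set, the part of Ifi211, the gene once called Mnda, cannot be told apart. The probe set that names Ifi203, its pseudogene and an uncharacterised locus held 5.22, 5.70, 5.58, 5.54 and 6.16 in exposed mice 1 to 5, against 4.59, 4.36, 4.71, 4.03 and 3.68 in unexposed mice 1 to 5. Here too the groups lay apart, by 1.37 (SE 0.22). The genes of the cluster are close paralogs, so probes of 1 may also bind transcripts of another and every single value carries that doubt.

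The other p200 genes of the cluster were measured by probe sets that name them alone, and 2 of the 5 rose. Ifi207 had 5.09, 5.83, 6.17, 5.79 and 6.38 in exposed mice 1 to 5, against 4.15, 4.66, 4.70, 4.24 and 4.63 in unexposed mice 1 to 5, and rose by 1.38 (SE 0.22, limma adjusted p = 0.00211). The pseudogene Ifi203-ps rose by 0.79 (SE 0.16, adjusted p = 0.00769), and the shared probe set of Ifi203 names it too. Ifi203-ps lay below the array median in all 10 mice (means 4.87 in exposed and 4.08 in unexposed mice), and Ifi207 in 6 of them. The differences of Ifi208, Ifi213 and Ifi214 were 0.07, 0.19 and 0.20 (adjusted p = 0.897, 0.666 and 0.552). These 3 genes lay below the array median in all 10 mice, with means of 2.88, 2.82 and 1.95 in exposed mice, against 2.81, 2.63 and 1.75 in unexposed mice. Ifi206 has no value here. Along the cluster, the 5 measured genes from Aim2 to Ifi208, all below the array median in all 10 mice, were not called, and the genes called higher lay between Ifi207 and Ifi205. Mndal, inside that stretch, was not called. Ifi208, Ifi213, Ifi214 and Mndal have GAAATCGAA in a promoter, as Ifi207 does. Whether this match bears on the differences was not tested.

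**Figure D2:**
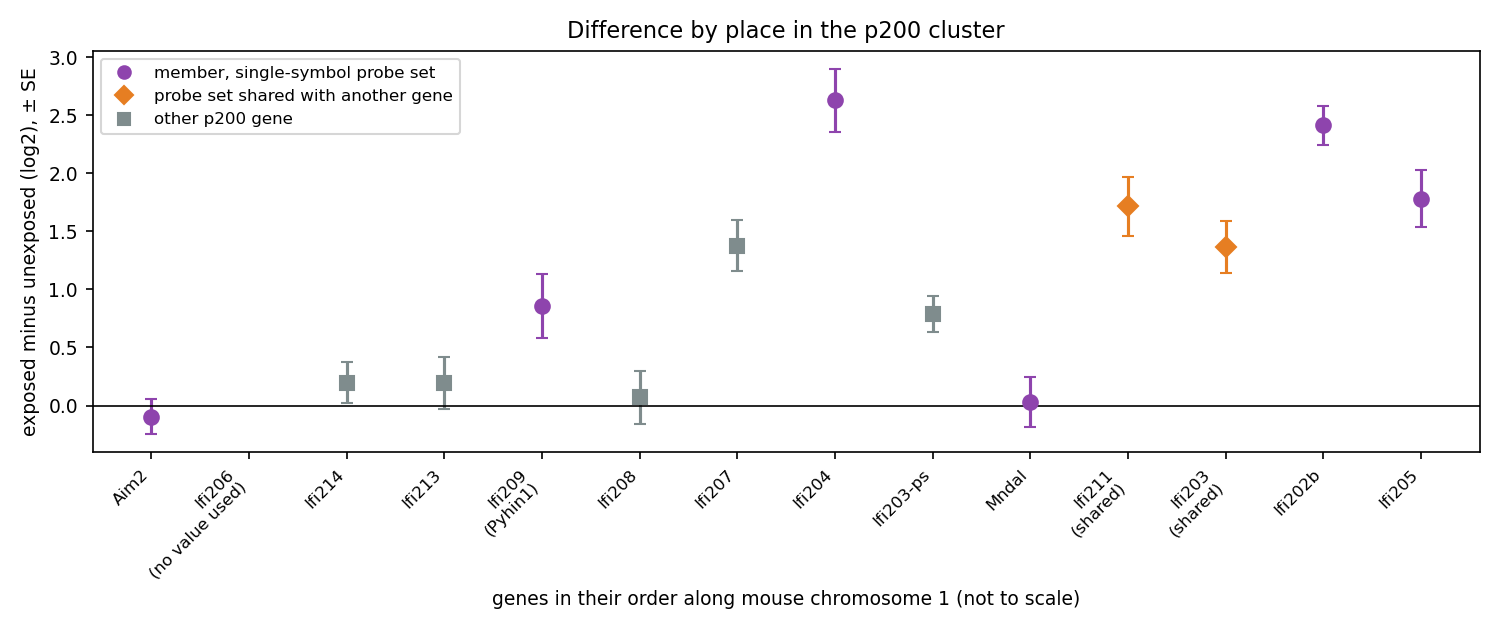
Difference between exposed and unexposed mice (vertical axis, log2, with SE bars) for 13 of the 14 genes of the p200 cluster, in their chromosome order and not to scale, with a gap for Ifi206, which has no value here; circles are members, squares other p200 genes and diamonds probe sets shared between genes. The values near 0 are those of Aim2, Ifi214, Ifi213, Ifi208 and Mndal, and the highest are those of Ifi204 and Ifi202b.

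The 3 called members did not keep the same order of mice. Exposed mouse 1 was lowest for Ifi204 and Ifi205, and exposed mouse 3 for Ifi202b, where mouse 1 was close to it (7.27 and 7.29). Exposed mouse 5 was highest for Ifi204, mouse 3 for Ifi205 and mouse 4 for Ifi202b. Unexposed mouse 5 was lowest for all 3. Likeness was measured as the root mean square difference between log2 profiles over the 10 mice, each profile centred on its own mean, so that a smaller value means a closer match. Ifi202b and Ifi204 were each other's nearest member (0.35), and the member nearest to Ifi205 was Ifi202b (0.48). Outside the cluster, the gene nearest to the mean of the 6 members was Tlr7 (0.14), an endosomal receptor for single-stranded RNA, which had 5.08, 5.88, 5.85, 6.08 and 6.22 in exposed mice 1 to 5, against 4.78, 4.37, 4.63, 4.46 and 3.92 in unexposed mice 1 to 5. Next came Asf1b, a histone chaperone (0.18), Anln, an actin-binding protein of cytokinesis (0.18), the kinetochore gene Kntc1 (0.18), Frrs1 (0.20) and Syt8 (0.20). Nearest to Ifi205 were Tlr8 (0.18), another endosomal RNA receptor, and the peptidase gene Ace (0.26). Nearest to Ifi202b were the kinetochore gene Ndc80 (0.22) and the metallothionein gene Mt2 (0.26), and nearest to Ifi204 were Hmmr (0.26) and the cyclin gene Ccna2 (0.29). For Ifi209 they were Mx2 (0.23), an interferon-induced GTPase, and Pola2 (0.24), for Mndal Sult2a5 (0.14) and Mir344e (0.16), and for Aim2 Tmem121 (0.09) and Trmu (0.10). These are descriptions of 10 mice, and most genes near a called member share with it a difference between the groups.

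Genes of inflammasomes were partly higher. Of 15 measured, 4 rose and 0 fell in the limma fit (1 fall at an unadjusted p under 0.05), with a median difference of 0.17. Besides the adaptor, caspases and substrates, the list held sensors other than Aim2: Nlrp3, Nlrc4, Nlrp1b, Naip2, Naip5, Mefv and Nlrp10. None of these sensors was called. Pycard, which encodes the adaptor ASC, rose by 0.68 (SE 0.15, adjusted p = 0.0129), and Casp8, a caspase that ASC can recruit, by 0.71 (SE 0.13, adjusted p = 0.00518). Il18, a cytokine matured by caspase-1, rose by 0.56 (SE 0.14, adjusted p = 0.0308), and Gsdmd, the pore-forming gasdermin, by 0.40 (adjusted p = 0.0293). Casp1 itself averaged 6.05 ± 0.39 in exposed mice and 6.51 ± 0.28 in unexposed mice (SD, n = 5 each; difference -0.45, adjusted p = 0.173), and Il1b 6.55 ± 0.88 in exposed mice and 5.82 ± 0.35 in unexposed mice (difference 0.73, adjusted p = 0.249). Leaving out exposed mouse 2, 4 or 5, or unexposed mouse 1, 3 or 4, ended the call of Il18 (adjusted p 0.0136 to 0.0732, highest without exposed mouse 2). For Gsdmd, the call held when exposed mouse 1 or exposed mouse 5 was omitted and ended in the other 8 of 10 fits (adjusted p 0.0140 to 0.0694, highest without exposed mouse 4). The list had 2 rises when exposed mouse 2 or 4, or one of unexposed mice 1, 3 and 4, was omitted, and the difference of Il1b became 0.44 without exposed mouse 2.

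Among 14 genes of nucleic acid sensing and removal outside the family, 4 rose and 1 fell, with a median difference of 0.32. Zbp1, a sensor of Z-form nucleic acids, had 8.08, 8.53, 7.88, 8.47 and 8.36 in exposed mice 1 to 5, against 6.67, 6.59, 6.68, 7.05 and 6.35 in unexposed mice 1 to 5, and rose by 1.59 (SE 0.16, adjusted p = 0.000133). Samhd1, which degrades deoxynucleotides, rose by 1.16 (SE 0.13, adjusted p = 0.000243), and Sting1, the adaptor for cytosolic DNA signalling, by 1.14 (adjusted p = 0.000138). Cgas, the enzyme that makes the ligand of STING, rose by 0.48 (adjusted p = 0.0474), and the kinase gene Ikbke fell by 0.38 (adjusted p = 0.0454). All 10 values of Cgas lay below the array medians. Cgas kept its call only without exposed mouse 1 (adjusted p 0.0247 to 0.107 over the 10 fits, highest without exposed mouse 2), and Ikbke only when unexposed mouse 3 or 5 was omitted (adjusted p 0.0436 to 0.106, the top value being without unexposed mouse 4). Gsdmd, Sting1, Cgas and Stat3 were named after their values were seen.

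Few genes of interferons and their receptors passed the test, and genes that interferons induce did so in both directions. Of 15 genes of interferons and their receptors, 1 rose and 1 fell (median -0.03): Ifngr1, a chain of the interferon gamma receptor, rose by 0.41 (adjusted p = 0.0185) and Ifnk fell by 0.88 (adjusted p = 0.00685). Ifngr1 lost its call without unexposed mouse 1 (adjusted p 0.0156 to 0.0505), the list then held 0 rises and 2 falls, and without exposed mouse 1 it held 2 rises. Ifnb1, the type I interferon made in many cell types, averaged 2.55 ± 0.46 in exposed mice and 1.98 ± 0.22 in unexposed mice (difference 0.58, adjusted p = 0.0987), and Ifng 4.15 ± 0.16 in exposed mice and 4.11 ± 0.35 in unexposed mice (difference 0.04, adjusted p = 0.916; SD, n = 5 each). Both genes lay below the array median in all 10 mice, so whether they were expressed is uncertain. Of 14 signalling genes, 3 rose and 0 fell (median 0.17), with 6 and 0 at an unadjusted p under 0.05 in limma. Without exposed mouse 1 the count of called rises was 5. The feedback inhibitor Socs3 rose by 1.10 (SE 0.10, adjusted p = 7.9e-05), Stat2, a subunit of the factor downstream of the type I receptor, by 0.73 (SE 0.13, adjusted p = 0.00508) and Stat3 by 0.33 (adjusted p = 0.0332). The call of Stat3 also held when exposed mouse 1 or exposed mouse 5 was omitted and ended in the other 8 fits (adjusted p 0.0322 to 0.0833, highest without unexposed mouse 1). Irf7 differed by 0.58 (adjusted p = 0.0614), and passed when exposed mouse 1, or else unexposed mouse 2, was omitted (adjusted p 0.0341 to 0.137).

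Of 40 other interferon-induced genes, 14 rose, 3 fell and 23 did not pass, with a median difference of 0.33. The GTPase genes Iigp1 (1.70, SE 0.18, adjusted p = 0.00017) and Gbp5 (1.10, SE 0.23, adjusted p = 0.0109) led the rises, and the exonuclease gene Isg20 (-0.63, adjusted p = 0.0284), Oas2, which makes the activator of RNase L (-0.48, adjusted p = 0.0173), and Ifi27 (-0.38, adjusted p = 0.0174, named after its values were seen) fell. The largest difference of the 40 was below those of Ifi204, Ifi202b and Ifi205, a statement about these lists with no test of it. The family was selected on such differences, so nothing is read from this order. Omitting exposed mouse 2 or 4, or unexposed mouse 1 or 4, ended the call of Isg20 (adjusted p 0.0279 to 0.0693, the top value being without unexposed mouse 1). Without exposed mouse 4 the count of rises was 9.

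**Figure D3:**
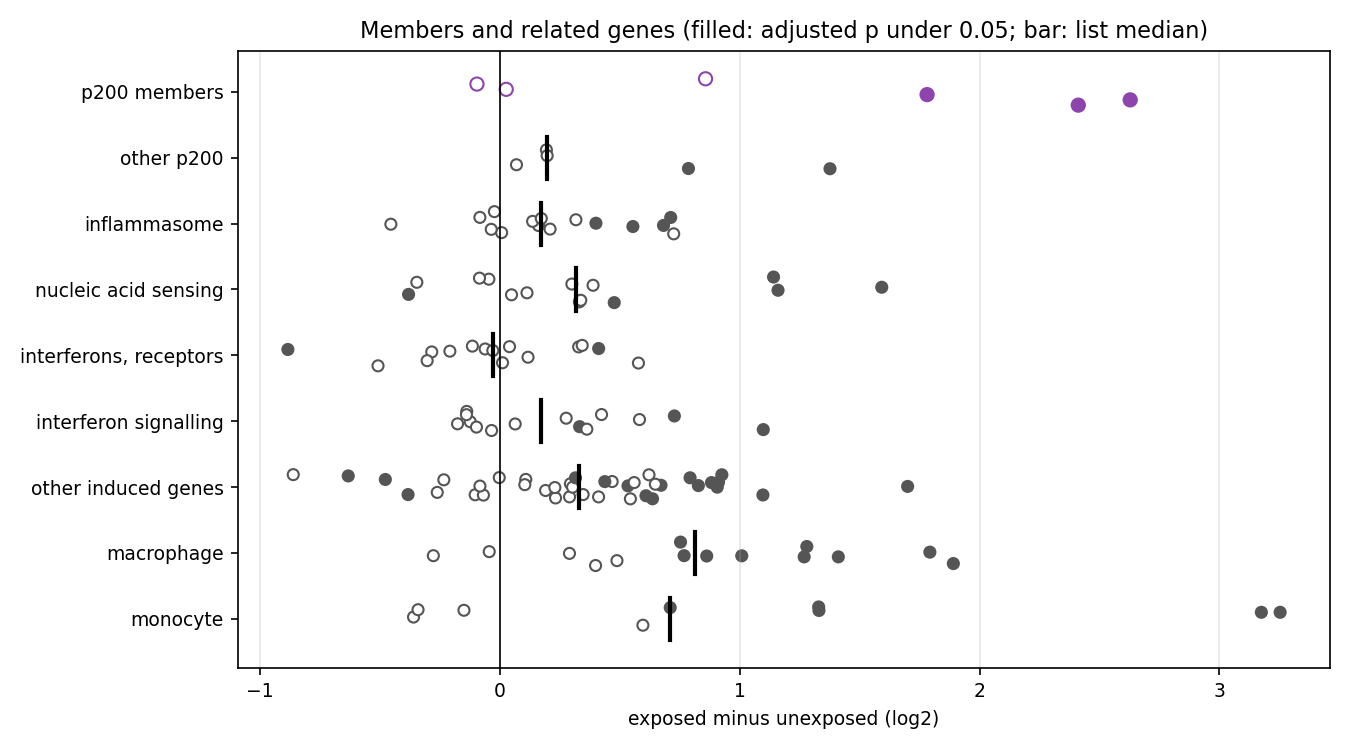
Difference between exposed and unexposed mice (horizontal axis, log2) of the 6 p200 members and of the genes of 8 related lists; each point is a gene, filled where the adjusted p over all genes was under 0.05, and bars are the medians of the 8 lists. The 3 filled members lie at 1.78, 2.41 and 2.63, beyond all 40 other induced genes, while monocyte genes reach 3.25.

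Many markers of myeloid cells, in which p200 genes are known to be expressed, were higher in exposed mice, though not all were. Of 14 macrophage markers 9 rose and 0 fell, with 10 and 0 at an unadjusted p under 0.05 in limma, and with a median difference of 0.82, led by the scavenger receptor gene Msr1 (1.89, SE 0.37, adjusted p = 0.00722) and the lysosomal gene Cd68 (1.79, SE 0.32, adjusted p = 0.00418). The macrophage list mean ran from 7.22 to 8.03 in exposed mice, against 6.54 to 6.97 in unexposed mice, and exposed mouse 1 had the lowest exposed mean. That mouse was also lowest for Ifi204 and Ifi205, and for 13 of the 18 gene lists examined, those of fibroblasts, endothelium and lymphocytes among them. Of 9 monocyte markers 5 rose and 0 fell, with 6 and 0 at an unadjusted p under 0.05 in limma (median 0.71), with list means of 8.64 to 9.22 in exposed mice and 7.67 to 8.05 in unexposed mice. These were Chil3, a chitinase-like protein (3.25, SE 0.39, adjusted p = 0.000377), Plac8 (3.17, SE 0.28, adjusted p = 6.6e-05), and, named after their values were seen, Vcan (1.33), the integrin gene Itgam (1.33) and Ly6c2 (0.71). Csf1r, the receptor on which macrophages depend, differed by 0.40 (adjusted p = 0.101), and the pan-leukocyte gene Ptprc averaged 7.39 ± 0.50 in exposed mice and 7.17 ± 0.31 in unexposed mice (SD, n = 5 each; difference 0.22, adjusted p = 0.628). The difference of Csf1r was 0.26 without unexposed mouse 5, and that of Ptprc was 0.07 without exposed mouse 4, 0.09 without unexposed mouse 5 and 0.38 without exposed mouse 1. In all, 0 of the 14 macrophage markers and 2 of the 9 monocyte markers differed by more than Ifi204 or Ifi202b, and 2 macrophage markers differed by more than Ifi205. The family was selected on its differences, so nothing is read from this ranking. Named after their values were seen, Cd14 (-0.28) and Cx3cr1 (-0.04) of the macrophage list were lower without a call. So were Ccr2 (-0.36), Lyz2 (-0.34) and F13a1 (-0.15) of the monocyte list (limma adjusted p 0.213 to 0.851 for these genes). Exposed mouse 3 had the highest macrophage list mean, 1.21 above the unexposed mean. The same mouse had the lowest exposed value of Ifi202b, 2.17 above the unexposed mean of that gene, with exposed mouse 1 close to it at 2.19. The part of these cells in the p200 differences was not tested.

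**Figure D4:**
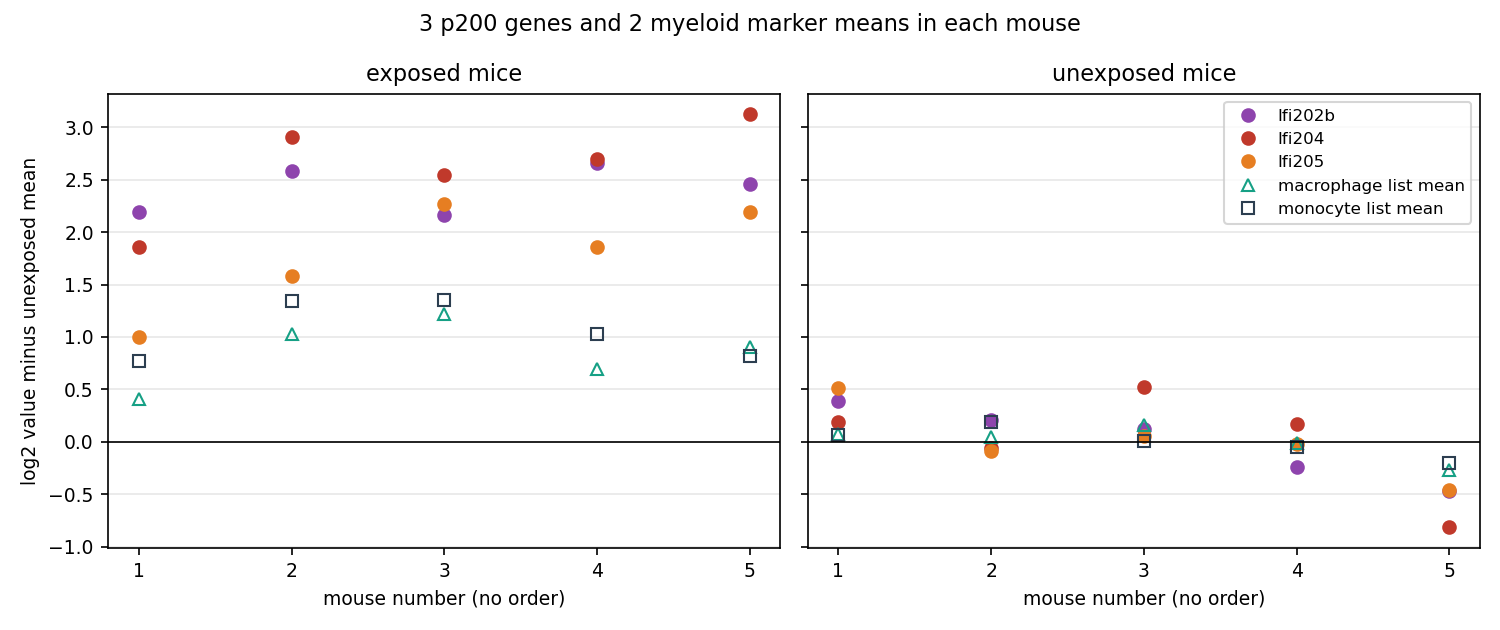
Log2 value minus the mean of the unexposed mice (vertical axis) for Ifi202b, Ifi204, Ifi205 and the macrophage and monocyte list means, in each exposed mouse (left) and unexposed mouse (right); mouse numbers carry no order. In exposed mouse 1 the macrophage mean was 0.41, Ifi205 1.00 and Ifi204 1.86 above the unexposed mean. Each was the lowest of the exposed mice. Ifi202b was 2.19 above it in that mouse, close to its lowest exposed value, 2.17 in mouse 3.

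Markers of other leukocytes gave smaller or mixed counts. Of 11 neutrophil markers 3 rose (S100a8 by 2.43, adjusted p = 0.00391, S100a9 by 1.59, adjusted p = 0.0237, and Mmp8, named after its value was seen, by 1.11), with list means of 4.46 to 5.30 in exposed mice and 3.87 to 4.19 in unexposed mice. Markers of lymphoid and dendritic cells gave 0 rises, also at an unadjusted p under 0.05 in limma, and 2 falls in each of 3 lists: Xcr1 (-0.81, adjusted p = 0.000767) and Cd209a (-0.71, adjusted p = 0.024) among 9 dendritic genes, Cd3g (-2.08, adjusted p = 0.0167) and Ncr1 (-0.51, adjusted p = 0.0338) among 13 T and NK cell genes, and Mzb1 (-0.83, adjusted p = 0.0307) and Blk (-0.59, adjusted p = 0.0188) among 8 B and plasma cell genes. The dendritic and the T and NK list means overlapped between the groups through exposed mouse 4 alone, the other 4 exposed mice (up to 5.13 and up to 4.54) lying below every unexposed mouse. The list means ran from 4.87 to 5.35 in exposed mice, against 5.31 to 5.43 in unexposed mice, for dendritic cells, 4.42 to 5.50 in exposed mice, against 4.78 to 5.12 in unexposed mice, for T and NK cells, and 3.95 to 4.57 in exposed mice, against 4.13 to 4.61 in unexposed mice, for B and plasma cells. Of 10 mast cell and eosinophil genes 0 passed in the limma fit and 1 had an unadjusted p under 0.05, with Mcpt4 (-0.73, adjusted p = 0.276) and Ccr3 (-0.29, adjusted p = 0.146) having the smallest p, and the difference of Mcpt4 was -0.44 without unexposed mouse 1. With a mouse left out, S100a9 lost its call in 4 of 10 fits (omitting exposed mouse 2, exposed mouse 4, unexposed mouse 1 or unexposed mouse 5, adjusted p up to 0.0624), Cd209a in 3 (without unexposed mouse 2, 3 or 4, up to 0.0594, and its difference was -0.11 and not called with the brightest probe set in place of the mean of its probe sets), Ncr1 in 7 (all but exposed mouse 1 or 4 or unexposed mouse 2, up to 0.081), Mzb1 in 6 (without exposed mouse 5 or any 1 unexposed mouse, up to 0.075) and Blk in 1 (without unexposed mouse 1, 0.0501). The count of neutrophil rises was 5 without exposed mouse 5, and that of T and NK cell falls was 5 without exposed mouse 4. Xcr1, Ncr1 and Ccr3 lay below the array median in all 10 mice, Mmp8 in 9 and Blk in 7.

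Markers of the structural tissue gave these values. Of 10 fibroblast genes 3 rose, Col3a1 by 1.04, Col1a1 by 0.87 and Pdgfra by 0.68 (adjusted p = 0.00295, 0.0191 and 0.0206), with list means of 9.78 to 10.34 in exposed mice, against 9.54 to 9.85 in unexposed mice. Omitting exposed mouse 4 ended the call of Col1a1 (adjusted p = 0.0501), and that of Pdgfra ended without unexposed mouse 1 or 5 (adjusted p up to 0.054). Of 12 epithelial genes the keratins Krt6a and Krt14 rose by 5.32 and 4.31 (adjusted p = 4.4e-05 and 6.8e-06) and 0 fell. At an unadjusted p under 0.05 in limma there were 3 rises and 3 falls, and the median difference was -0.21. Scgb3a1 (-2.48), Scgb1a1 (-2.15) and Foxj1 (-1.37), named after their values were seen, were lower without a call (adjusted p = 0.164, 0.14 and 0.127). The epithelial list means were 7.73 to 9.87 in exposed mice, against 8.69 to 9.11 in unexposed mice. Of 7 cartilage genes Matn1 fell by 1.56 (adjusted p = 0.0187), with 4 falls at an unadjusted p under 0.05 in limma. All 7 were lower in exposed mice (differences -1.56 to -0.34, median -0.81). Of 7 endothelial genes Tek rose by 0.46 (adjusted p = 0.0492, without a call in 8 of 10 fits with a mouse left out), with 4 rises at an unadjusted p under 0.05. Of 6 smooth muscle genes 0 passed in limma, also at an unadjusted p under 0.05, Actg2 and Cnn1 differing by 0.15 and -0.10 (adjusted p = 0.743 and 0.809). Cartilage had 4 falls and epithelium 2 without exposed mouse 3, and endothelium had 3 rises without exposed mouse 1.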

How the data were processed

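Per the submitters' processing notes, the deposited log2 values were made by the authors with RMA in Partek 6.6, with settings, probe filters and an annotation build not given in the sources used here. That the log base is 2 follows from the span of the values and from RMA's usual output. Of 41345 probe sets, 23521 named 1 gene, 1814 several and 16010 were not listed and are unnamed here. Each gene's value was the mean of its single-symbol probe sets (22180 genes); each of the 6 p200 genes had 1. Names were matched to RefSeq (GRCm38.p6) by gene ID and synonym; 0 symbols changed. The groups were compared across all genes by lmFit and eBayes of limma 3.58.1 under R 4.3.3 (two-sided, no covariate), with Benjamini-Hochberg adjustment over all genes and calls at adjusted p under 0.05; the script was tested on simulated data. The 2 shared probe sets were fitted with all probe sets. Promoters were aligned globally with Biopython 1.88. The members and the 18 lists were chosen with earlier results of these data known. Named outside the family were up to 2 called rises and 2 called falls per list (with none called, the 2 smallest p), the 6 genes nearest to the family mean, the 2 nearest to each member, and a fixed set (Irf7, Casp1, Pycard, Il1b, Il18, Ifnb1, Ifng, Ptprc, Csf1r, Epcam and Pdgfra; another is not reported here). The mice are separate animals with 1 array each; no labelled batch exists, and scanner files were not used. Python 3.11.15, pandas 2.3.3 and matplotlib 3.10.9 made the tables and the plots.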

Additional observations from a re-analysis of the deposited data

How the results depend on the processing

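The counts for all genes, members and lists, and the differences of the members and of the genes named by the rule or after their values were seen, were recomputed with each mouse left out, with array weights, with a trend and robust eBayes fit, with the mouse number as a block, after quantile normalization or median centring of the arrays, with a gene's brightest probe set in place of the mean, and with dim genes removed by either of 2 rules. The 2 shared probe sets, Ifi208, Ifi213, Ifi214, Cd14, Cx3cr1, Ccr2, Lyz2, F13a1, Scgb3a1, Scgb1a1 and Foxj1 were not followed singly. Each member has 1 probe set, so the alternative of single probe sets gave nothing further. In all of these, and at an adjusted p under 0.01 or a fold of at least 2, 3 members were called higher and 0 lower. The family was selected on these differences, so its count is no support in any of these settings. The filters kept 3 of the 6 members, the same ones. No member's difference moved by more than its SD. With a mouse left out, all genes called higher numbered 944 to 1432 and lower 723 to 1407 (lowest without unexposed mouse 4, and over 1.5 times fewer than with all mice also without unexposed mouse 1); inflammasome rises were 2 to 4, nucleic acid sensing falls 0 to 1, interferon and receptor rises 0 to 2 and falls 1 to 2, signalling rises 2 to 5 and other induced rises 9 to 17. The filters left 1 and 0 rises among other p200 genes, for fewer genes tested, and gave 2 interferon receptor rises, as did the trend and robust fit. The 1 rise left was Ifi207, under the filter for log2 values of 5 or more on 5 or more arrays. Its exposed values (5.09 to 6.38) reached that level and its unexposed values (4.15 to 4.70) did not. It passed only through the group where it is high, so this call is no support. Centring and quantile normalization gave 0 falls in nucleic acid sensing. Mouse numbers do not pair the animals by any label, and deviations of same-numbered mice correlated at -0.05 to 0.12, above 0.1 in 2 of 5 pairs. With the replicate block, 1026 genes were higher and 854 lower, other induced rises were 8, interferon receptor rises 0 and nucleic acid sensing falls 0, and 11 of the named genes lost their calls; the cause was not tested. Irf7 was called under array weights, both filters and the trend and robust fit. With no detection limit, low signal bounds what Aim2, Mndal, Ifi209, Ifi208, Ifi213, Ifi214 and Ifi203-ps can show, and in part Ifi207. The same holds outside the family for Ifnb1, Ifng, Cgas, Xcr1, Ncr1 and Ccr3, and in part for Mmp8 and Blk.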
